A study of Mus musculus with 3 samples.

Results

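Genes of the unfolded protein response and the integrated stress response were compared between cultured aortic endothelial cells of Pim1-/- mice and of wild-type mice. The members were a list of 35 genes, each looked up by the gene name printed beside the non-control probes of the arrays. That name found 32 of them, on 54 probes, among 19750 named genes on 41174 probes in all. The remaining members, Dnajc3, Manf and Ppp1r15a, stood on the array under the older symbols Dnajc3a, Armet and Myd116, were matched through their RefSeq accessions, and are given apart and in no count of the 32. Pim1 is a serine/threonine kinase. Knockout and wild-type mice were both FVB/N, female and 12 weeks old by the labels, and RNA was taken 24 hours after the primary cells had been seeded on gelatine-coated dishes in medium with serum. The labels name no stress agent for either genotype. Each of 3 two-colour arrays carried knockout RNA in Cy5 and wild-type RNA in Cy3 (called biological replicates by the labels), and every ratio below is knockout over wild type on the log2 scale. No dyes were swapped, so an effect of the dyes and an effect of the genotype cannot be told apart. The p-values rest on the spread among only 3 arrays, that of each probe combined with that of all tested probes. The labels do not say whether the wild-type RNA was a pool or came from separate cultures. If it was a pool, the spread among arrays holds no variation among wild-type cultures.

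The endoplasmic reticulum (ER) folds proteins bound for the cell surface and the outside. When unfolded protein builds up there, 3 membrane sensors respond. Ire1 (gene Ern1) splices the mRNA of the transcription factor Xbp1, Atf6 is cut to release a transcription factor of its own, and Perk (Eif2ak3) phosphorylates the initiation factor eIF2-alpha. Atf6 and Xbp1 raise chaperones, oxidoreductases and the machinery that removes misfolded protein. Phosphorylated eIF2-alpha slows general translation and favours translation of Atf4, and the same step is reached by Gcn2 (Eif2ak4) when amino acids are short, which is why this arm is called the integrated stress response. Atf4 drives amino acid synthesis, Atf3, Ddit3 (Chop) and a set of feedback genes. Splicing of Xbp1, cleavage of Atf6 and phosphorylation are not seen by these arrays, which measure the amount of mRNA.

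Both arms act through short promoter elements. The ER stress element ERSE is CCAAT and CCACG with 9 free bases between them and is bound by Atf6 with NF-Y. ERSE-II is a compact form, ATTGG and CCACG with 1 free base between them. The UPRE core is TGACGTG, and the C/EBP-ATF response element (CARE), TGATGNAA, is bound by Atf4. The promoters below were taken from RefSeq (GRCm38.p6) and show which letters stand before the genes that the results turn on: the 3 called genes with a CARE that were higher, the 2 with a CARE that were lower, and Hspa5 and Calr as chaperones with an ERSE. Each runs 5′ to 3′ on the strand of its gene and ends at the base before the start of transcription, except Trib3, which is shown to 30 bases past the start because its CARE lies there. Capitals mark the elements, and an element on the other strand is seen as its reverse complement, so that a CARE reads TTGCATCA or TTACATCA in all 5 promoters that hold it here. In Herpud1 the first capitals are a CARE and the second an ERSE-II. In Hspa5 the first are a UPRE core and the second an ERSE. In Calr the capitals are an ERSE.
Trib3, chr2:152344031-152344280, minus strand: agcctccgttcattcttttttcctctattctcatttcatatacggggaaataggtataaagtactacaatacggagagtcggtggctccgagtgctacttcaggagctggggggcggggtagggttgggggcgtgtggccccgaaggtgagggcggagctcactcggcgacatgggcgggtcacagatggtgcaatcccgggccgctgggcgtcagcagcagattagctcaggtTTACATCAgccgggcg
Chac1, chr2:119350992-119351241, plus strand: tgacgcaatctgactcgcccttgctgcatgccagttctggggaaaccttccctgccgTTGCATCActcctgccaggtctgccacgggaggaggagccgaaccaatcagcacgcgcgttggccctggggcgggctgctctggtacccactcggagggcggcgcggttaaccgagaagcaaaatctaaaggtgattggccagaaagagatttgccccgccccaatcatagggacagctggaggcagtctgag
Herpud1, chr8:94386179-94386428, plus strand: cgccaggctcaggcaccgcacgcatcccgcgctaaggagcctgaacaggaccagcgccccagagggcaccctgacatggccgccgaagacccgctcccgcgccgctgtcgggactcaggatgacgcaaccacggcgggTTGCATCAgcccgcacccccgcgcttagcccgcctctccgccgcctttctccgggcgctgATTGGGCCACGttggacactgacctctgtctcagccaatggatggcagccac
Atf3, chr1:191183334-191183583, minus strand: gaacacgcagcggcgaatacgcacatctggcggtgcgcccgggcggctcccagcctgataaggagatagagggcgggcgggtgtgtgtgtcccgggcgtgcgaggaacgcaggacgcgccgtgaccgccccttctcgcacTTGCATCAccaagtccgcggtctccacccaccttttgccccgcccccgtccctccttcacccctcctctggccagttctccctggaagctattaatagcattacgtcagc
Nupr1, chr7:126625471-126625720, minus strand: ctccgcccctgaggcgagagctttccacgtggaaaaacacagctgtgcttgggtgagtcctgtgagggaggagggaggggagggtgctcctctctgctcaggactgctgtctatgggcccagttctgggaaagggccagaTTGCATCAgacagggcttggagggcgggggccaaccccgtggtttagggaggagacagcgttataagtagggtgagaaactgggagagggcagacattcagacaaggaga
Hspa5, chr2:34771840-34772089, plus strand: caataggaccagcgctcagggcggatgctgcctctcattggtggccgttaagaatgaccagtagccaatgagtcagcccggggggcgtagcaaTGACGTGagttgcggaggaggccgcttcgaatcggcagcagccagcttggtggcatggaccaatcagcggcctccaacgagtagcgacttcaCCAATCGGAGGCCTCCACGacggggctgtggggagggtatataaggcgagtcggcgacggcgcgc
Calr, chr8:84846932-84847181, minus strand: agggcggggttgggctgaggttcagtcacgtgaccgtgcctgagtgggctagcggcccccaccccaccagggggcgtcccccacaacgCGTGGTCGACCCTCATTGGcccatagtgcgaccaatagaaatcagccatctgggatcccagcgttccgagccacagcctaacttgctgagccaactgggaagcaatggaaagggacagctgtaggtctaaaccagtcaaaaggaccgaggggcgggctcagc

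The arrays were checked before the members were read. For knockout RNA 53.8% to 57.2% of probes were well above background, for wild-type RNA 58.4% to 62.6%, and no spot was saturated. Arrays 2 and 3 resembled each other most (r = 0.905 across probes), and array 1 stood apart from them (r = 0.681 and 0.699). Pim1 read −0.97, −1.16 and −0.99 on the 3 arrays, a 2.05-fold lower level in the knockout channel (limma adjusted p = 0.00301), although the removed stretch of the gene is not given by the labels. The sex labels did not match the data. Xist was at least 168-fold lower (limma adjusted p = 0.000133) and Eif2s3y at least 28.1-fold higher (adjusted p = 0.000326) in the knockout channel, where both are bounds from a channel not well above background, so sex and genotype cannot be told apart.

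The labelled cell type was checked too. Of 15 endothelial markers, 3 in the knockout and 5 in the wild-type channel lay well above background on all arrays, and Pecam1, Cdh5, Tie1 and Erg did so on none. Their summed intensity was 8494 to 11287 in the knockout and 4410 to 5079 in the wild type, and of the 5 that could be tested Eng and Egfl7 were called higher. Fibroblast markers lay well above background for all 8 genes in the knockout and for 7 in the wild type. Their sums were 213376 to 240935 against 178061 to 211772, and 6 of the 8 were called higher and 1 lower. The median log2 ratio of the 8 was 2.26, from −0.70 (Col1a2) to 3.09 (Col3a1). Col1a1 and Col1a2 were the brightest of them and weigh most in the sums, which therefore differ less than most of the genes. Mesothelial markers were above background for 7 of 8 genes in both channels and summed to 11022 to 14037 in the knockout against 80122 to 99920 in the wild type, with 6 called lower. Smooth muscle markers, 4 and 5 of 6 above background, summed to 28708 to 34657 against 36027 to 52047, with 2 called lower. Macrophage markers, 4 of 7 above background in both channels and Adgre1 and Aif1 on no array, summed to 2254 to 2610 against 3578 to 4866, with 2 called lower. The part of these cell markers in the results on stress genes was not tested, and in RNA from whole cultures fewer cells of a type and less RNA per cell cannot be told apart.

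Of the 32 genes, 10 differed between the genotypes. Here a gene was called when its mean log2 ratio over the 3 arrays differed from 0 with an adjusted p under 0.05 (limma, Benjamini-Hochberg over all 25090 tested probes). The share called was 31.25%, beside 20.1% of all 13469 named genes tested. Higher in the knockout were Trib3, Chac1, Sesn2, Sdf2l1, Herpud1, Calr, Ero1l and P4hb, which is 8 of the 32, beside 8.64% of all genes. Lower were Atf3 and Nupr1, which is 2 of the 32, beside 11.4% of all genes. The median log2 ratio was 0.18 for the members and −0.02 for all genes, and it was 0.49 and 0.08 when arrays were centred on their median in place of loess. Of all calls 43.0% were higher with loess and 55.5% with median centring. The sign was the same on all 3 arrays for 21 of the 32, beside 54.0% of all genes. On the level of probes, 14 of the 52 tested were called (26.9%, beside 17.1% of all probes). With the scanner software's own log ratio, which the deposited value table repeats, 4 of the 32 were called (Trib3, Chac1, Sdf2l1 and Atf3). That is 12.5%, below the 18.7% of all genes. With median centring 9 were called (28.1%, beside 13.8%). At an adjusted p under 0.01 only Trib3 was called (3.1%, below the 7.08% of all genes). Trib3 and Vldlr reached a mean change of 2-fold or more, and the other 30 stayed under it. Without replicate 1, 18 of the 31 tested members were called (58.1%), beside 42.2% of all genes. Without replicate 2 or replicate 3, only Trib3 was called among the members. That is 3.2% and 3.1% of those tested, below the 5.41% and 4.63% of all genes. Hspa5 could not be tested without replicate 1 or without replicate 2.

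**Figure D1:**
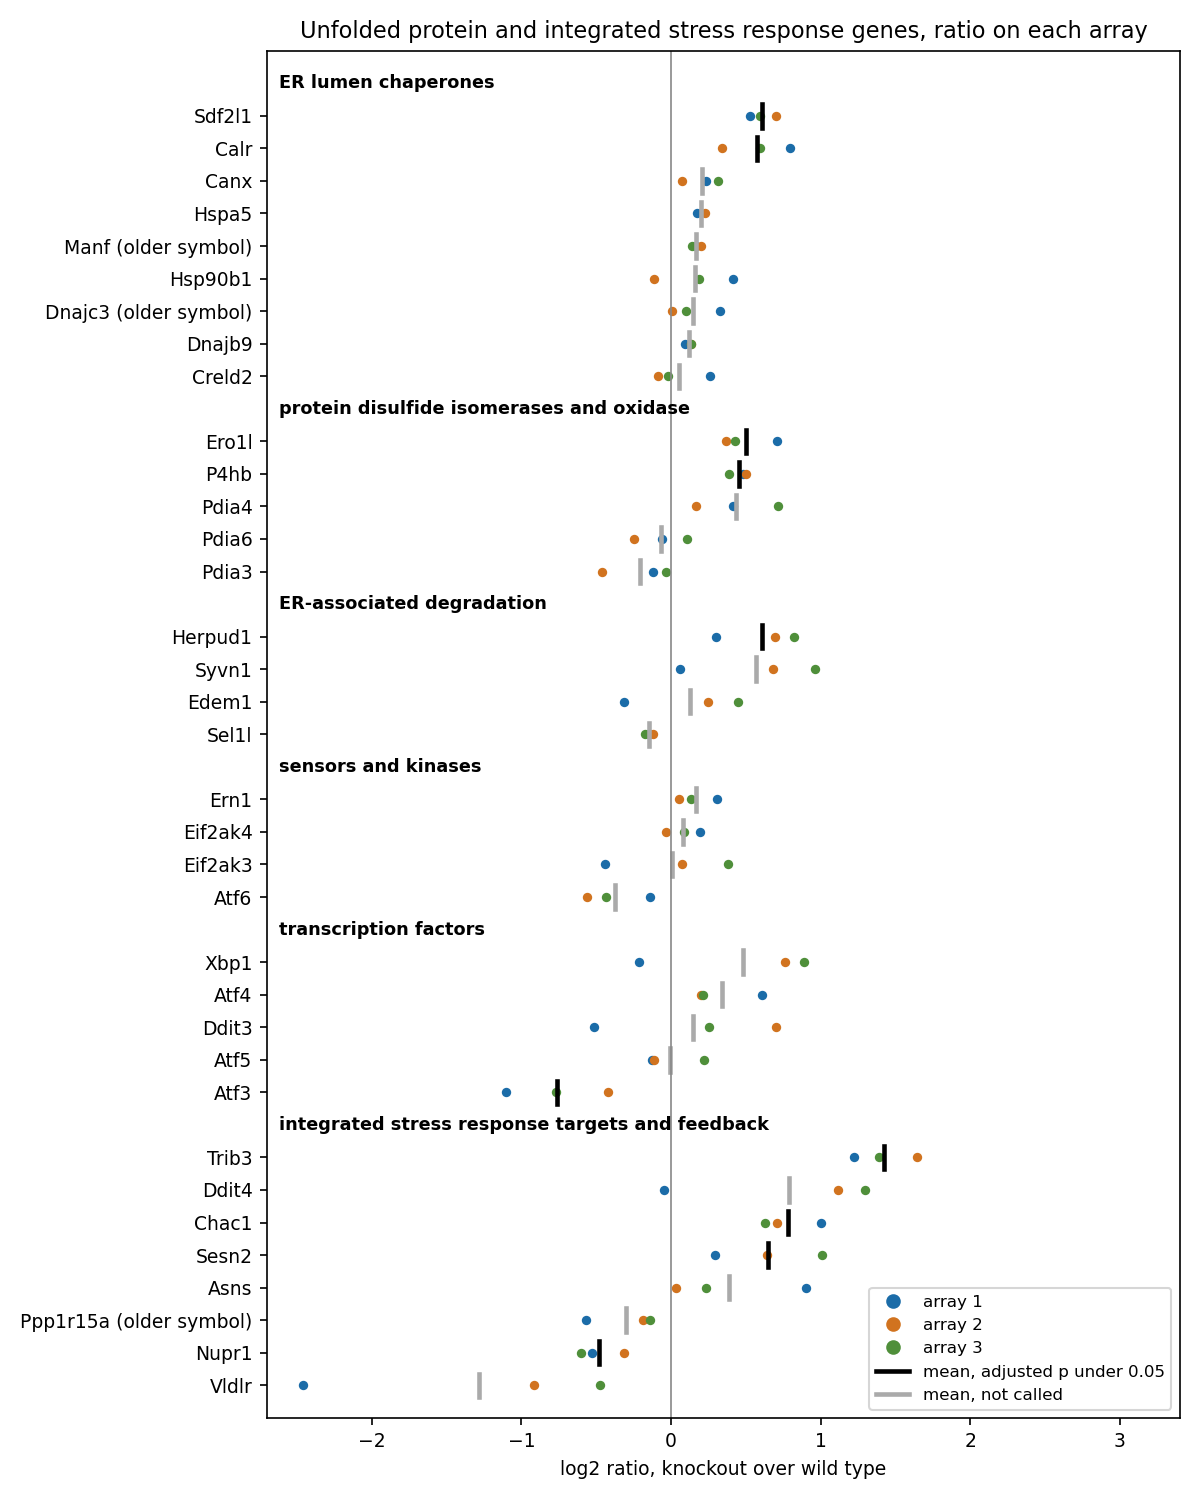
Log2 ratio of knockout over wild type (x axis) on each of the 3 arrays (coloured points) for the 32 members and the 3 genes matched under an older symbol, grouped by role; the vertical bar is the mean, black where the adjusted p was under 0.05. Trib3 lies to the right on every array, from 1.23 to 1.64, and Vldlr is spread from −2.46 to −0.48.

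The targets and feedback genes of the integrated stress response held the widest changes. Of the 7 genes of this group, 3 were called higher and 1 lower (4 of 7, beside 20.1% of all genes), and the median log2 ratio was 0.65. Trib3 encodes a pseudokinase that binds Atf4 and Chop and restrains their activity. Its log2 ratios were 1.23, 1.64 and 1.39 on arrays 1, 2 and 3. All 3 arrays were high, and the mean of 1.42 ± 0.21 (SD, n = 3) was a 2.68-fold higher level (limma adjusted p = 0.00199). A second Trib3 probe gave 1.25 and was called as well (adjusted p = 0.00221). Trib3 was called under all 16 alternative settings, including those without each replicate. Among these settings the scanner software's log ratio and the deposited value table hold the same values. Chac1, an enzyme that breaks down glutathione, read 1.01, 0.71 and 0.63. It was higher on every array, with a mean of 0.78 ± 0.20 (1.72-fold, limma adjusted p = 0.0116), and its adjusted p was 0.0866 without replicate 2 and 0.078 without replicate 3. Sesn2 restrains the growth kinase complex mTORC1 and takes part in sensing leucine. It read 0.29, 0.64 and 1.01, so array 1 was lowest and array 3 highest. Its mean was 0.65 ± 0.36 (1.57-fold, limma adjusted p = 0.0442), its second probe gave 0.53 (adjusted p = 0.0243), and its adjusted p was 0.203 without replicate 2 and 0.219 without replicate 3.

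Nupr1 went the other way. It encodes a small chromatin-associated protein that is induced by many stresses. Its log2 ratios of −0.53, −0.32 and −0.60 were below 0 on every array. The mean of −0.48 ± 0.15 was a 1.40-fold lower level (limma adjusted p = 0.0338), with an adjusted p of 0.128 without replicate 2 and 0.221 without replicate 3. Its call was also lost with the scanner software's log ratio (adjusted p = 0.0843), median centring (0.185) and an offset of 0 (0.0531).

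The other members of this group were not called, and their arrays disagreed. Ddit4 (Redd1), an inhibitor of mTORC1, read −0.05, 1.12 and 1.29. Array 1 lay near 0 and arrays 2 and 3 well above it. The mean of 0.79 ± 0.73 had a limma adjusted p of 0.111, against 2.06e-09 without replicate 1. Without that replicate 42.2% of all genes were called. Asns, asparagine synthetase, had the opposite order, with 0.90 on array 1 and 0.03 and 0.23 on the others (adjusted p = 0.214). Vldlr, the very low density lipoprotein receptor, read −2.46, −0.91 and −0.48. It was below 0 on every array, but by very different amounts, and its mean of −1.28 ± 1.04 had a limma adjusted p of 0.0751, against 4.51e-05 without replicate 1. Its second probe gave −0.90 (adjusted p = 0.0537). Ppp1r15a (Gadd34), which brings a phosphatase to eIF2-alpha and so ends the response, was measured under its older symbol at −0.57, −0.19 and −0.14 (adjusted p = 0.158).

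**Figure D2:**
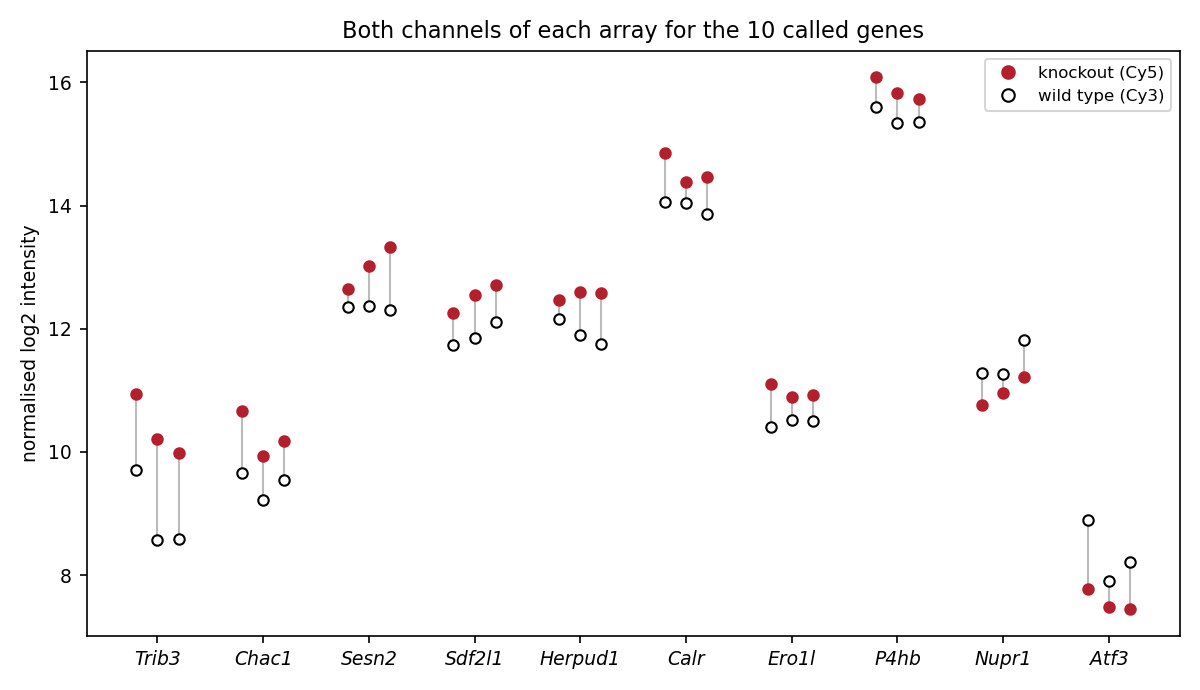
Normalised log2 intensity (y axis, after loess and Aquantile scaling) in the knockout channel (red) and the wild-type channel (open) of each of the 3 arrays, for the 10 called members. For Trib3 the knockout channel reads 10.94, 10.21 and 9.98 and the wild-type channel 9.71, 8.57 and 8.59; for Atf3 the wild-type channel is the brighter one on each array.

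Among the chaperones of the ER lumen, 2 of 7 were called, both higher (beside 20.1% of all genes called and 8.64% called higher), and the median log2 ratio was 0.20. Sdf2l1, a partner of the chaperone complex around BiP, read 0.53, 0.70 and 0.60. The arrays lay close together above 0, with a mean of 0.61 ± 0.09 (1.53-fold, limma adjusted p = 0.014), and the adjusted p was 0.13 without replicate 2 and 0.122 without replicate 3. Calr, calreticulin, a calcium-binding lectin chaperone, read 0.79, 0.34 and 0.59. It was above 0 on every array, with a mean of 0.58 (1.49-fold, limma adjusted p = 0.0306). Its second probe gave 0.26 and was not called (adjusted p = 0.194), the mean of both probes was not called, and for the main probe the adjusted p was 0.0962 without replicate 2 and 0.183 without replicate 3.

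The chaperones most used as readouts of ER stress were not called. Hspa5 (BiP), the main Hsp70 of the ER and the partner that holds the sensors inactive, read 0.18 and 0.22 on arrays 1 and 2. Its spot on array 3 was flagged as an outlier and left out, so its mean of 0.20 rests on 2 arrays (limma adjusted p = 0.345, 95% interval −0.13 to 0.52). With flagged spots kept, array 3 read 0.78, the mean was 0.39 and the adjusted p was 0.137. Hsp90b1 (Grp94), the Hsp90 of the ER, gave 0.16 (adjusted p = 0.453) and −0.06 on its other probe. Canx, calnexin, the membrane-bound lectin chaperone, gave 0.21 (adjusted p = 0.223), with −0.09 and 0.08 on its other probes. Dnajb9 (ERdj4), a cochaperone of BiP, gave 0.12 (95% interval −0.11 to 0.34) on its main probe. Its other probes gave 0.24 (0.013 to 0.46) and 0.11, neither of them called (limma adjusted p = 0.136 and 0.461). Creld2 gave 0.05 (−0.22 to 0.33). The intervals of Creld2 and of the main Dnajb9 probe leave room for small changes in either direction. Under older symbols, Dnajc3 (p58IPK), a cochaperone and inhibitor of Perk, gave 0.15 on its main probe, while its 4 probes ran from −0.21 to 0.57 and only the highest was called (adjusted p = 0.0372). Manf, a secreted factor induced by ER stress, gave 0.17 (adjusted p = 0.269).

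Of the 4 protein disulfide isomerases and the oxidase that recharges them, 2 were called, both higher (beside 20.1% of all genes called and 8.64% called higher), and the median of the 5 genes was 0.43. P4hb, protein disulfide isomerase itself, read 0.48, 0.50 and 0.38. These were the tightest values among the 10 called genes, with a mean of 0.45 ± 0.06 (1.37-fold, limma adjusted p = 0.0289), and the adjusted p was 0.2 without replicate 2 and 0.163 without replicate 3. Ero1l, the oxidase, read 0.71, 0.37 and 0.42. It was above 0 on every array, with a mean of 0.50 ± 0.18 (1.41-fold, limma adjusted p = 0.0356). A second Ero1l probe gave 0.02 and was not called (adjusted p = 0.956), and the main probe's adjusted p was 0.149 without replicate 2 and 0.174 without replicate 3. Pdia4 read 0.41, 0.17 and 0.71, all above 0, and missed the threshold (mean 0.43, limma adjusted p = 0.0819). Pdia3 gave −0.21 and Pdia6 −0.07, neither of them called, and both were above 0 with median centring (0.086 and 0.30). The 4 probes of Pdia6 disagreed, from −0.49, which was called lower (adjusted p = 0.0232), to 0.27.

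In ER-associated degradation, 1 of 4 genes was called, a share near the 20.1% of all genes, and the median was 0.35. Herpud1, a membrane protein that gathers the degradation complex, read 0.30, 0.69 and 0.82. It was above 0 on every array and lowest on array 1, with a mean of 0.61 ± 0.27 (1.52-fold, limma adjusted p = 0.0344), and the adjusted p was 0.2 without replicate 2 and 0.211 without replicate 3. Syvn1 (Hrd1), the ubiquitin ligase of that complex, had nearly the same mean but a wider spread. It read 0.06, 0.68 and 0.96, with a mean of 0.57 ± 0.46 (limma adjusted p = 0.0979, against 2.32e-06 without replicate 1). Without that replicate 42.2% of all genes were called. Edem1, which helps pick misfolded glycoproteins, read −0.32, 0.25 and 0.45 on its main probe (mean 0.13, adjusted p = 0.661). Another Edem1 probe gave 0.77 and was called higher (adjusted p = 0.0106), so its probes did not give 1 answer. Sel1l, the partner of Hrd1, gave −0.15 and, on another probe, 0.12 (adjusted p = 0.327 and 0.518), and a further probe was not well above background on any array.

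None of the 4 sensors and kinases was called, beside 20.1% of all genes, and their median was 0.04. Ern1 gave 0.16 (95% interval −0.09 to 0.42, limma adjusted p = 0.33). Eif2ak3 read −0.44, 0.08 and 0.38, with a mean of 0.0050 (−0.42 to 0.43, adjusted p = 0.99). Its arrays lay on both sides of 0, and the sign of its mean turned under 5 of the alternatives. Eif2ak4 gave 0.08 (−0.16 to 0.33, adjusted p = 0.631). Atf6 was the one sensor with a negative mean. It read −0.14, −0.56 and −0.43, all below 0, with a mean of −0.38 (−0.67 to −0.08). That mean missed the threshold after adjustment (limma adjusted p = 0.0872). Atf6 passed it without replicate 1 (limma adjusted p = 0.0011), where 42.2% of all genes were called. The second Atf6 probe read 0.42, −0.48 and −0.37, above 0 on array 1. It was not called (mean −0.14, limma adjusted p = 0.676).

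Of the 5 transcription factors, 1 was called, a share near the 20.1% of all genes, and it was lower in the knockout. Atf3, a stress-induced repressor that Atf4 activates, read −1.11, −0.42 and −0.77. All 3 arrays were below 0, with a mean of −0.77 ± 0.34, a 1.70-fold lower level (limma adjusted p = 0.0263), and the adjusted p was 0.0605 without replicate 2 and 0.16 without replicate 3. Atf4 itself read 0.60, 0.20 and 0.21, above 0 on every array but not called (mean 0.34, limma adjusted p = 0.119). Its activity is set mainly by translation, which arrays do not measure. Xbp1 read −0.21, 0.76 and 0.89, and Ddit3 (Chop), a factor that promotes cell death under lasting stress, read −0.52, 0.70 and 0.25. In both, array 1 lay below 0 and arrays 2 and 3 above it. Neither was called over the 3 arrays (means 0.48 and 0.15, limma adjusted p = 0.222 and 0.723). Both were called higher without replicate 1 (limma adjusted p = 1.67e-06 and 0.00274), where 42.2% of all genes were called. The Xbp1 probe does not separate the spliced from the unspliced mRNA as far as the files say. Atf5, a relative of Atf4, averaged −0.01 (limma adjusted p = 0.972), on either side of 0 depending on the scaling (0.23 with median centring).

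The difference of array 1 ran through much of the list. Set against the mean of arrays 2 and 3, array 1 was lower by 1.77 for Vldlr, 1.25 for Ddit4, 1.03 for Xbp1, 1.00 for Ddit3 and 0.77 for Syvn1 on the log2 scale. It was higher by 0.77 for Asns, 0.40 for Atf4, 0.37 for Hsp90b1, 0.36 for Atf6 and 0.34 for Chac1. These 5 genes, of several roles, were thus highest on array 1, and Ddit4, Xbp1, Ddit3 and Syvn1 were lowest there. Which feature of array 1 goes with this was not tested.

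**Figure D3:**
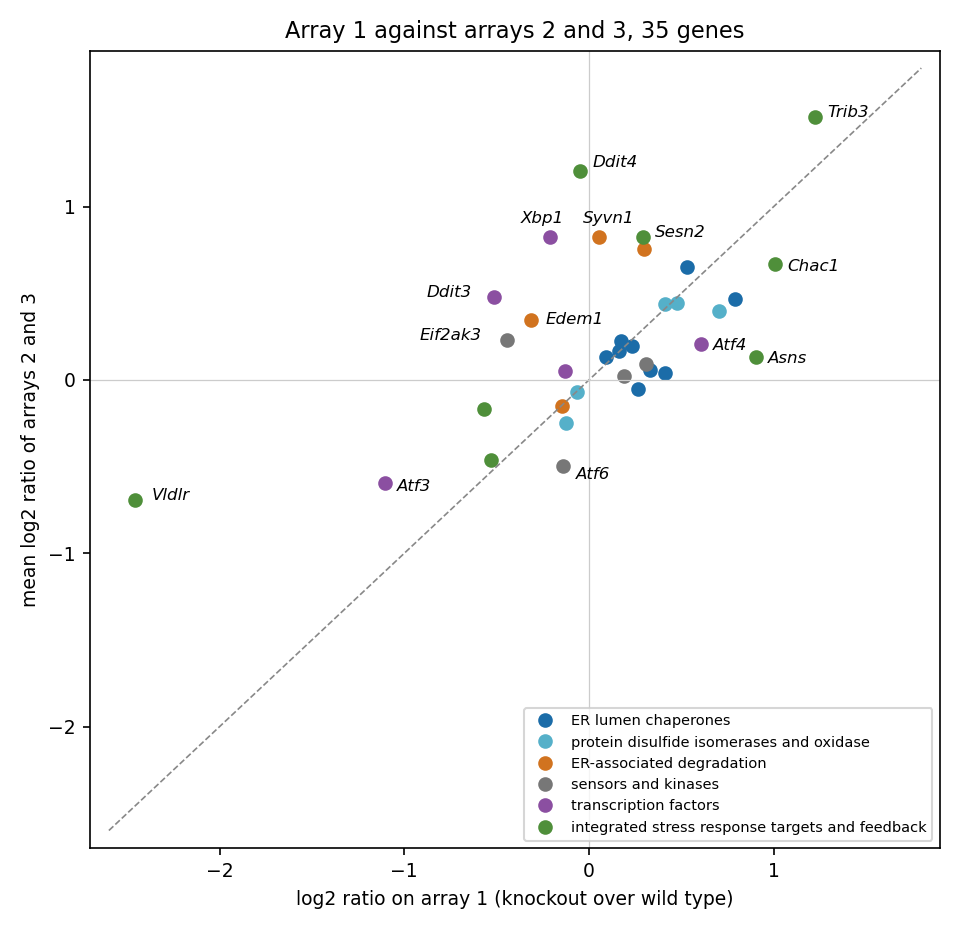
Log2 ratio on array 1 (x axis) against the mean log2 ratio of arrays 2 and 3 (y axis) for the 32 members and the 3 genes under older symbols, coloured by role; the dashed line marks equal values. Ddit4, Xbp1, Ddit3 and Syvn1 lie above the line, Asns and Chac1 below it, and Trib3 is high on both axes.

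The members differed in the elements their promoters hold. They were listed as genes of these responses, and the elements are those through which the responses act. A share above that of all genes is therefore no independent result. Promoters of 250 bases before to 50 bases after the start were searched on both strands, and 33 of the 35 listed members had one in the RefSeq table (all but Atf6 and Manf). An ERSE stood in 8 of the 33, beside 0.137% of 27025 genes with a promoter. These were Calr, Canx, Creld2, Dnajc3, Hsp90b1 with 2 sites, Hspa5, Pdia6 and Syvn1. A CARE stood in 7, beside 4.51% of all genes, namely Asns, Atf3, Chac1, Herpud1, Nupr1, Trib3 and Vldlr. The only ERSE-II was in Herpud1 (0.0444% of all genes) and the only UPRE core in Hspa5 (2.22%). No 2 of these matches overlapped in the members shown above. A match gives the letters only, and a gene without one may hold the element elsewhere.

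Ratios of the genes with an ERSE lay mostly near 0, and those of the genes with a CARE ran both ways. Of the 8 with an ERSE, 1 was called (Calr), the median log2 ratio was 0.18, and the range was −0.07 to 0.58. Of the 7 with a CARE, 5 were called, 3 higher (Trib3, Chac1, Herpud1) and 2 lower (Atf3, Nupr1), with a median of 0.39 and a range of −1.28 to 1.42. Of 18 with neither element nor an ERSE-II, 4 were called, all higher, with a median of 0.16. Among all genes with a promoter 19.7% were called, and among all 296 tested genes with a CARE 23.0% were, with a median of 0.00. The difference between the classes was not tested, since the members had been chosen with results known.

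**Figure D4:**
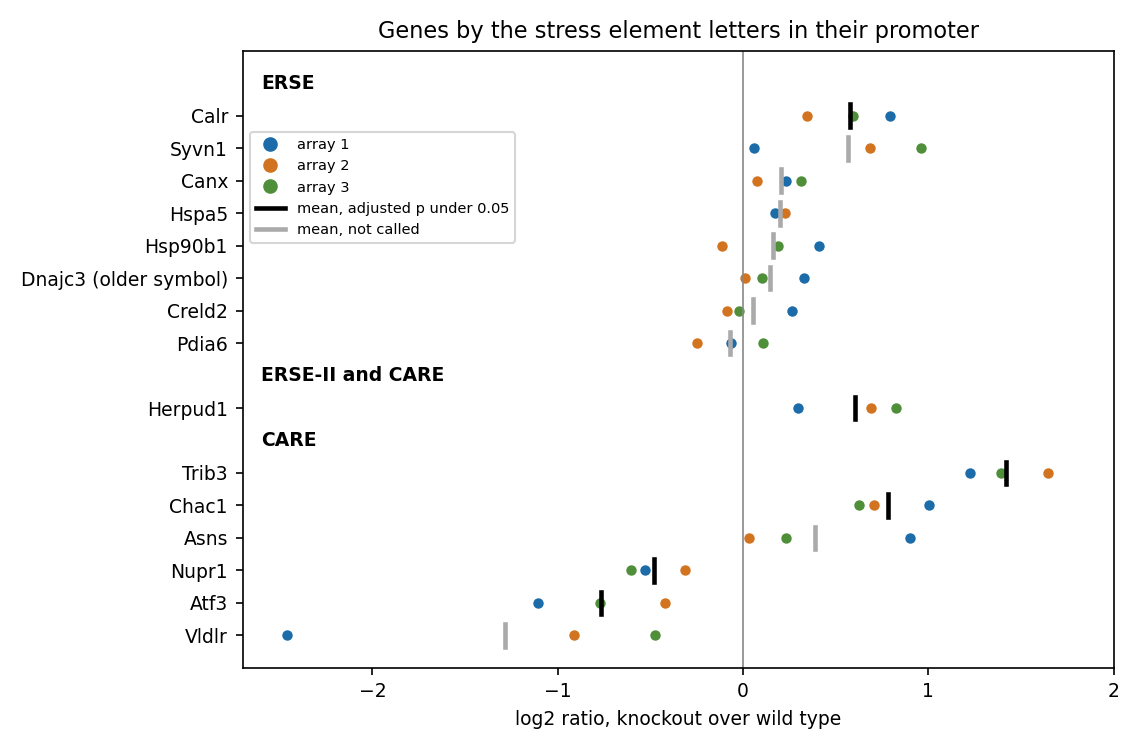
Log2 ratio of knockout over wild type (x axis) on each array (coloured points), with the mean as a bar (black where the adjusted p was under 0.05), for members whose promoter holds an ERSE, an ERSE-II with a CARE, or a CARE. The ERSE means run from −0.07 to 0.58, and those with a CARE from −1.28 to 1.42.

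The rest of the pathway was read from 5 further lists. Of their 135 genes 132 were tested, and 24 were called (18.2%, beside 20.1% of all genes), 16 higher and 8 lower, with a median of 0.06. The list of other Atf4 targets, with enzymes of amino acid synthesis, amino acid transporters and tRNA synthetases, had 41 tested genes, of which 9 were called higher and 2 lower, with a median of 0.23. Stc2, a secreted glycoprotein, read 2.45, 1.34 and 1.16. It was high on every array and highest on array 1, with a mean of 1.65 ± 0.70 (3.14-fold, limma adjusted p = 0.0145). Gpt2, the mitochondrial alanine transaminase, rose 1.75-fold (adjusted p = 0.0276), Yars, the tyrosyl-tRNA synthetase, 1.66-fold (adjusted p = 0.0151), and Psph, the last enzyme of serine synthesis, 1.64-fold (adjusted p = 0.0463). Psat1 and Phgdh, also of serine synthesis, had log2 ratios of 0.53 and −0.68 and were not called (limma adjusted p = 0.0676 and 0.0537). Both were named after their values were seen, as were the 2 genes called lower, Gdf15 and Slc7a3. Gdf15, a stress-induced cytokine, gave a log2 ratio of −0.70 (adjusted p = 0.0115). Slc7a3, a transporter of cationic amino acids, gave −0.49 (adjusted p = 0.0315). Slc7a3 lies on the X chromosome, and sex and genotype cannot be told apart here.

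The other lists lay near 0. Of their tested genes 11.5% to 20% were called per list, beside 20.1% of all genes. Of 22 tested sensors, transducers and initiation factors, 2 were called higher and 1 lower (median 0.01). Cebpb, a C/EBP factor that pairs with Atf4 and Chop, was 2.33-fold higher (0.85, 1.08 and 1.73 on the arrays, limma adjusted p = 0.0129), and Eif2ak1, the haem-regulated eIF2-alpha kinase, 1.38-fold (adjusted p = 0.027). Wfs1, a membrane protein of the ER, was lower at −0.61 (adjusted p = 0.0234). Of 26 folding and glycosylation factors, Mlec, which binds glucosylated glycans, was called higher (0.60, adjusted p = 0.0141), and Uggt1, the enzyme that marks misfolded glycoproteins, and Kdelr1, a receptor that retrieves ER proteins, were called lower (−0.52 and −0.40, adjusted p = 0.0385 and 0.0429). The median of that list was 0.04. Of 20 genes of the translocon and signal peptidase, the signal peptidase subunits Spcs2 and Sec11a were higher (0.65 and 0.62, adjusted p = 0.0157 and 0.0122), while the subunit Sec11c was lower (−0.69, adjusted p = 0.0174), as was Srp54a of the signal recognition particle (−0.42, adjusted p = 0.0333), which has near-identical copies that a probe may not separate. Of 23 other degradation factors, the ubiquitin-conjugating enzymes Ube2j1 and Ube2j2 were higher (0.69 and 0.67, adjusted p = 0.00808 and 0.0451). Derl3, a channel protein of degradation, lay well above background in the wild type only and was at least 1.63-fold lower in the knockout (adjusted p = 0.0248). For the called genes named from these lists, Stc2 and Cebpb included, the adjusted p was 0.0693 to 0.253 without replicate 2 and 0.0594 to 0.22 without replicate 3.

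**Figure D5:**
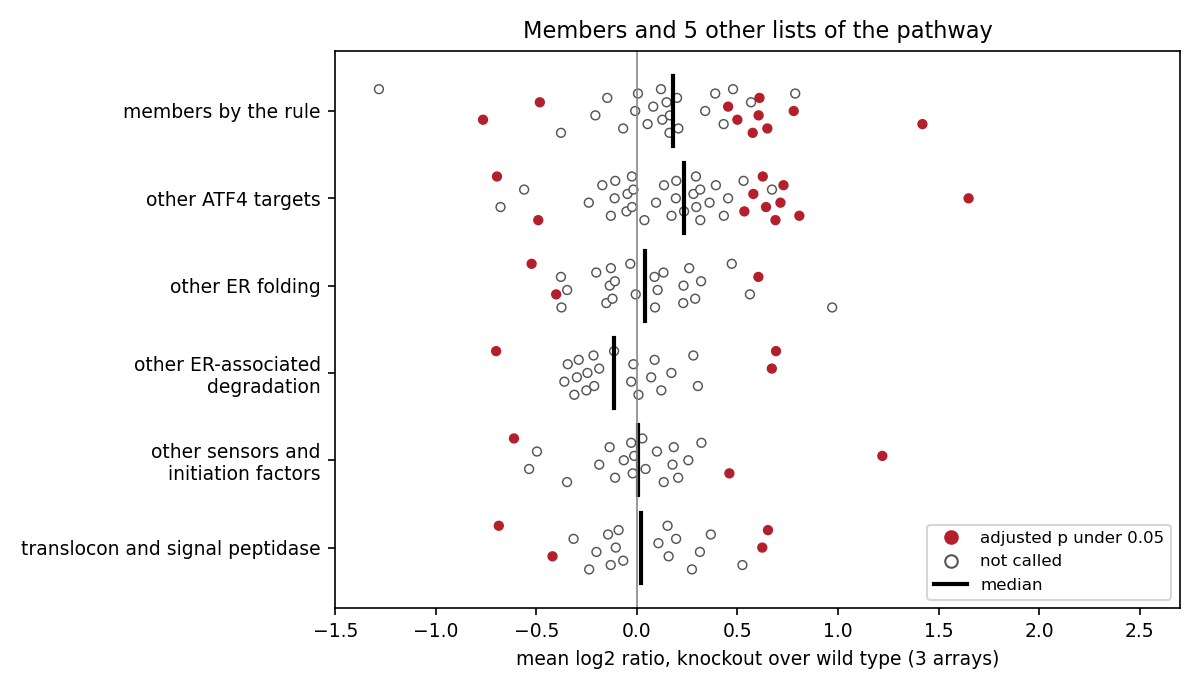
Mean log2 ratio of knockout over wild type over the 3 arrays (x axis) for the 32 members and for the genes of 5 other lists of the pathway (rows); filled points had an adjusted p under 0.05 and bars are medians. The medians are 0.18 for the members, 0.23 for other Atf4 targets and between −0.11 and 0.04 for the other lists.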

How the data were processed

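Each array file deposited by the authors held, per the file headers, pixel intensity (mean and median) and local background of each channel at 45018 spots, 1639 of them controls. The submitters' processing notes name Agilent Feature Extraction 9.5.3.1. The deposited value table held log10 ratios identical to the software's log10 ratio per the file headers (largest difference 0), so scale and direction are known. Mean intensities were corrected with normexp (offset 50) and normalised by loess within arrays in limma 3.58.1 (R 4.3.3), with control and outlier-flagged spots (121, 140 and 136) at weight 0 and then left out. Ratios of dim probes are drawn towards 0 by the offset. Testing needed a signal well above background in 1 channel on 2 or more arrays, and lmFit and eBayes tested the mean against 0, with Benjamini-Hochberg adjustment. A gene was its brightest tested probe. Names came from RefSeq (GRCm38.p6): 24375 probes matched by accession, 6301 by symbol and 2426 by synonym, 8072 had none, and 252 antisense probes were left out. Errors are SDs.

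Members and lists were chosen with earlier results of these data known, so no list was tested. Called members are given in full, sensors and transcription factors by their values, and each further list by up to 4 called genes of 1 sign across arrays, by size. Bounds use channel values after Aquantile and the dimmest signal well above background. The fit was tested on simulated data of 25090 probes: it called 20 of 50 probes with a 1.5-fold change and 38 of 50 with a 2-fold change correctly, with 2 false among 160 calls. The simulated noise was independent between arrays and few probes were changed, whereas 4289 probes were called in the data. Those counts therefore need not hold for the data. Alternatives covered background, offset, pixel summary, normalisation, filters, variance model, threshold, probe summary and each replicate left out; keeping flagged spots was added after seeing the data.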

Additional observations from a re-analysis of the deposited data

How the results depend on the processing

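Of the 10 called members, Trib3 was called under every alternative run, and the other 9 lost their call without replicate 2 and without replicate 3. The count called was 4 (3 higher, 1 lower), beside 18.7% of all genes, with the scanner software's log ratio or the value table. It was 1 (1 higher, 0 lower) at an adjusted p under 0.01, beside 7.08%. With a replicate left out it was 1 to 18 (1 to 14 higher, 0 to 4 lower). Beside that stood 42.2% of all genes without replicate 1, 5.41% without replicate 2 and 4.63% without replicate 3. With median centring 9 members were called, beside 13.8% of all genes. Of the 9, 1 was lower, and the members' median was 0.49. The median was 0.17 to 0.27 with a replicate left out. With the software's log ratio or the value table, Calr, P4hb, Ero1l, Herpud1, Sesn2 and Nupr1 lost their call (adjusted p 0.0609 to 0.0944). P4hb, Ero1l and Nupr1 lost it with offset 0, Ero1l and Nupr1 with median centring, Calr and Ero1l with probes averaged, Herpud1 and Sesn2 with no filter, and Sesn2 with scaling between arrays. Ddit4 gained a call with median centring, and Vldlr with no background subtraction and with offset 0. Without replicate 1, Pdia4, Edem1, Syvn1, Atf6, Xbp1, Ddit3, Ddit4 and Vldlr passed as well. Sign changes were limited to genes that were not called: Pdia3 (0.086) and Pdia6 (0.30) with median centring; Atf5 with median pixel intensities (0.0071), median centring (0.23), scaling between arrays (0.013) and a replicate left out (−0.12 to 0.051); Eif2ak3 with no background subtraction (−0.024), offset 0 (−0.013), probes averaged per gene (−0.014) and a replicate left out (−0.18 to 0.23). With a replicate left out, Pdia6 ran from −0.16 to 0.022, Creld2 from −0.052 to 0.12, Edem1 from −0.035 to 0.35 and Ddit3 from −0.13 to 0.48. The cause was not tested. Each ratio sets both genotypes against each other within 1 array, so a further replicate block could not be fitted. Whether the wild-type RNA of each array came from a culture of its own is not given by the labels. With 3 arrays precision is limited. On simulated data, with fewer changed probes than the data show, 20 of 50 probes changed 1.5-fold and 38 of 50 changed 2-fold were called.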

Other observations

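Of the 37 genes with an ERSE in the RefSeq promoter window, 21 were tested and 4 were called: Calr higher, and Derl3, Tdrd9 and Xlr3c lower. Xlr3c had the largest change of the 21, at −3.70, and sex and genotype cannot be told apart in it. The 29 that are no members included Alg12, an ER mannosyltransferase, at 0.32 (limma adjusted p = 0.087), and Ero1b, a relative of Ero1l, at −0.15 (adjusted p = 0.327); these were named after their values were seen. Of 289 tested genes with a CARE that are no members, 63 were called, 25 higher and 38 lower, which is 21.8%, beside 19.7% of all genes with a promoter.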
